A study of Mus musculus with 8 samples.

Results

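A set of 9 scavenger and lipoprotein receptor genes was followed in adipose tissue macrophages (ATMs) of lean and obese mice, namely Msr1, Marco, Cd36, Scarb1, Olr1, Cxcl16, Stab2, Lrp1 and Vldlr. They were chosen with earlier results of these data known and were matched by exact gene symbol in the probe annotation of the array. All 9 were found among the 18820 genes that had a probe set with 1 symbol. Male wildtype C57Bl/6 mice were fed either a low-fat diet (LFD, 10% of energy from fat) or a lard-based high-fat diet (HFD). ATMs were selected on magnetic beads for the macrophage surface protein that Adgre1 encodes, from the stromal vascular fraction of epididymal adipose tissue, the visceral fat pad of male mice that is used most often for such isolations. Each of the 4 experiments gave 1 pool of mice per diet, hence 4 LFD and 4 HFD pools on 8 arrays. Experiments 1 and 3 used an HFD with 45% and experiments 2 and 4 one with 60% of its energy as fat, each set against its own matched LFD. The labels give 16, 15, 16 and 10 weeks of diet in experiments 1, 2, 3 and 4. The methods of the study describe a single duration for all mice, and the labels are followed here. Levels are log2 signals, in which a difference of 1 is a factor of 2, and they cannot be compared between genes because every probe set has its own brightness.

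The bead selection was checked against cell type markers. Adgre1, whose protein the beads bound, lay between 9.95 and 10.95 in the 6 pools of experiments 2 to 4, but at 6.54 in the LFD pool and 8.58 in the HFD pool of experiment 1. The mean of 7 macrophage markers was likewise lowest in experiment 1, at 7.66 (LFD) and 8.66 (HFD), against 9.95 to 10.64 elsewhere. The mean of 12 endothelial markers ranged from 5.54 to 10.46 and was highest in both pools of experiment 1. Markers of fibroblasts (7 genes, 6.26 to 9.55) and of mural cells of vessels (6 genes, 5.21 to 9.42) were measured as well. The means of 7 adipocyte, 5 lymphatic endothelial and 5 mesothelial markers ranged from 3.95 to 6.16. The means of 6 dendritic cell, 5 T and B cell and 5 neutrophil markers lay at 4.32 or lower, around or under the array medians of 4.25 to 4.39. Experiment 1 therefore stood apart, and results that rest on it are given with and without it. The LFD pool of experiment 3 had the highest macrophage marker mean (10.64) and the lowest endothelial, fibroblast and mural means (5.54, 6.26 and 5.21). In the HFD pool of that experiment these means were 10.21, 7.58, 7.74 and 7.04. In pooled bulk RNA of this kind, fewer cells of a type and less RNA per cell cannot be told apart.

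Scavenger receptors are cell surface proteins that bind modified lipoproteins, dying cells and microbial surfaces, and in macrophages they take such cargo into the endosome and lysosome. They are grouped by structure rather than by ancestry, so that class A holds the collagen-like receptors, class B the CD36 family, class E the lectin-like receptor, class G the membrane-bound chemokine CXCL16 and class H the stabilins. The LDL receptor family, to which LRP1 and the VLDL receptor belong, takes up lipoproteins through apolipoproteins. In adipose tissue, both groups are known for lipid uptake by macrophages, and several members are also made by the endothelial cells and adipocytes around them.

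On HFD, the level of 5 of the 9 receptor genes, Lrp1, Msr1, Olr1, Cd36 and Stab2, was higher than on LFD within each of the 4 experiments, which 11.0% of all genes were. Marco alone was lower in all 4, as were 7.43% of all genes. Scarb1, Vldlr and Cxcl16 went both ways between experiments. The median difference of the 9 genes was 0.25, beside 0.0049 over all genes, and single genes ran from a mean of -0.80 (Marco) to 0.77 (Lrp1). Because the 9 genes were chosen with earlier results known, their counts and median, here and below, are descriptions and not tests of the set. None of the 9 reached an adjusted p under 0.05 in limma, and neither did any other gene on the array (0%), with or without the experiment as a block. The smallest adjusted p over all genes was 0.982 without the block and 0.0508 with it. At an unadjusted p under 0.05, limma without the block listed Lrp1 as higher (3.30% of all genes were) and none of the 9 as lower (1.51%). With the block, which compares the paired pools of an experiment, it listed Lrp1, Cd36 and Olr1 as higher, against 7.95% of all genes, and Marco as lower, against 4.16%. The p-values measure the spread between pools of mice, and the number of arrays limits the precision.

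**Figure D1:**
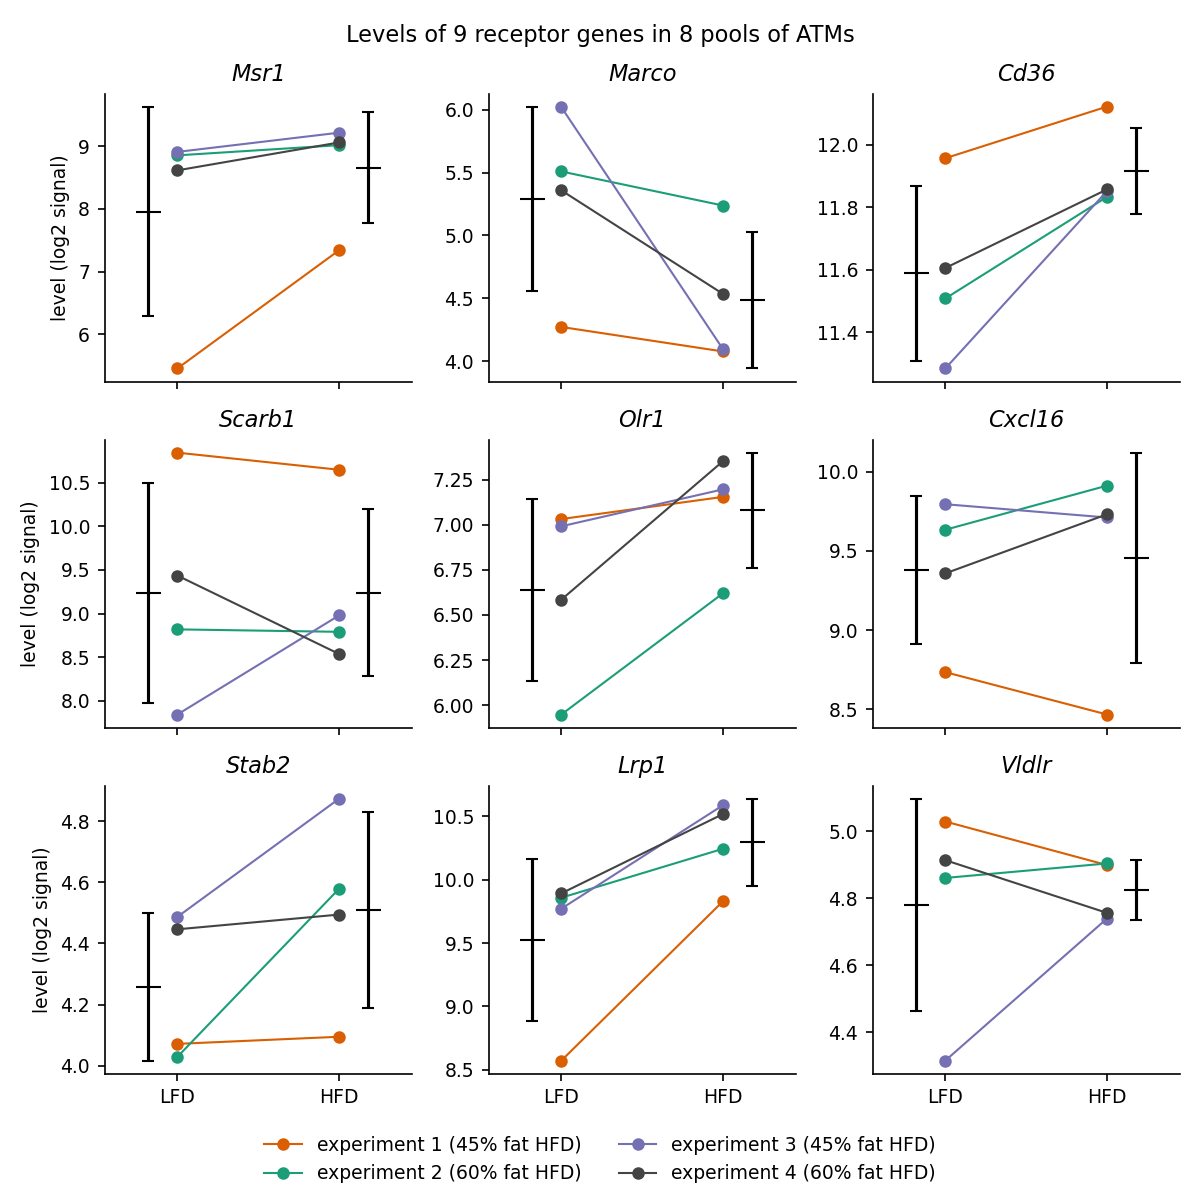
Level of each of the 9 receptor genes (y axis, log2 signal, own scale per panel) in the LFD and HFD pool of each experiment, joined by a line, with the mean ± SD of 4 pools in black at the sides. The lines of Lrp1, Cd36, Olr1, Msr1 and Stab2 all run up and those of Marco all run down, and the orange points of experiment 1 lie apart for Msr1, Cxcl16, Scarb1 and, on LFD, Lrp1.

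The 250 bases upstream of the transcription start are shown for the 4 genes with an unadjusted p under 0.05 in the block fit of limma. The sequences are those of RefSeq on GRCm38.p6, which held windows for 6 of the 9 genes, written 5′ to 3′ on the strand of the gene. Capitals mark matches on either strand to TGAGTCA for AP-1, to GGGCGG for the GC box, to CCAAT for the box of that name or to GAGGAAG for PU.1, motifs that were chosen after the sequences had been seen and that do not overlap here. Lrp1 is taken from chr10:127621149-127621398, Cd36 from chr5:17835897-17836146, Olr1 from chr6:129507166-129507415 and Marco from chr1:120505025-120505274, all on the minus strand.
Lrp1: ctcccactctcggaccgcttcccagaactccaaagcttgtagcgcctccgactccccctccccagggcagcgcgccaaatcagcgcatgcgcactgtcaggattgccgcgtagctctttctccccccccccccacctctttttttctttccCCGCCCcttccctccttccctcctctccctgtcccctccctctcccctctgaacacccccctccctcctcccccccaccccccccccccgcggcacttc
Cd36: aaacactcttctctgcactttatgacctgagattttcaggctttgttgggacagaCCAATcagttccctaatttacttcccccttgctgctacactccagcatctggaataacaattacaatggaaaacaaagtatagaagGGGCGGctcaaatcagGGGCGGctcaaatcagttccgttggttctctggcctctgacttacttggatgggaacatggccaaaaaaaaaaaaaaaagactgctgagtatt
Olr1: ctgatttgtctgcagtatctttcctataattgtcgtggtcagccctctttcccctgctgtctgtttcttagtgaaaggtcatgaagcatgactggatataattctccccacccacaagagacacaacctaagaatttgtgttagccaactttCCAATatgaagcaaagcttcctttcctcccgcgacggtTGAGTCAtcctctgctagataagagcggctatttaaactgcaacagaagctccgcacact
Marco: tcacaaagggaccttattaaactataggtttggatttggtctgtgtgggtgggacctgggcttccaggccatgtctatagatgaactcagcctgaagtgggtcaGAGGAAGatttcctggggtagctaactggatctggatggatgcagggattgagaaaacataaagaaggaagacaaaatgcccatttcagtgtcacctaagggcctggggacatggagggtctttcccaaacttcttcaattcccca
The Lrp1 window was rich in G and C (67.2%, against a median of 52.4% over 32851 windows) and held a single GC box, as at least 1 copy did in 32.7% of all windows. Cd36, at 43.2% GC, held 2 GC boxes and 1 CCAAT box, a motif found in 33.8% of windows. The Cd36 and Olr1 windows belong to starts inside the genes as annotated and not to their outermost ones. The Olr1 window held an AP-1 site that began 60 bases before the start and a CCAAT box 98 bases before it, and 4.46% of windows held the AP-1 letters. In the Marco window the PU.1 letters began 146 bases before the start, and 10.6% of windows held them. No motif was found in all 4 windows. A match of letters is a description of the window and not evidence of binding.

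Msr1 encodes the macrophage scavenger receptor of class A, which binds acetylated and oxidised LDL. Its level on LFD was 5.46, 8.85, 8.91 and 8.61 in experiments 1 to 4, and on HFD 7.34, 9.01, 9.21 and 9.06. Both pools of experiment 1 lay far under the other 6, and without them every HFD pool was above every LFD pool. The mean difference was 0.70 (SE 0.84, 1.62-fold) with an adjusted p of 0.999 in limma. An exact two-sided permutation of the 8 pools, which leaves out their pairing by experiment here and below, gave p = 0.457. Of that mean, experiment 1 carried most, with a difference of 1.88 against 0.16, 0.31 and 0.44 in the others. In experiments 2 to 4 alone the mean difference was 0.30 ± 0.14 (SD, n = 3; exact permutation p = 0.1, the smallest that 3 against 3 pools allow). Non-overlap of the kind seen in these 3 experiments was found for 4 of the 9 receptor genes with HFD higher and for 1 with HFD lower, against 8.30% and 4.52% of all genes. Over all 8 pools no receptor gene was free of overlap, against 1.19% of all genes with HFD higher and 0.680% with HFD lower. The macrophage marker mean also differed most in experiment 1, by 1.00 with HFD higher, and by -0.061, -0.43 and 0.0016 in experiments 2, 3 and 4. Adgre1 alone differed by 2.04, 0.43, -0.28 and 0.24 in experiments 1 to 4. The part of these marker differences in those of Msr1 was not tested in any experiment.

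Marco, the second class A receptor and one that binds bacteria and particles, ran the opposite way. LFD pools stood at 4.27, 5.51, 6.02 and 5.36, and HFD pools at 4.08, 5.24, 4.10 and 4.53. In experiments 2 to 4 all LFD pools exceeded all HFD pools. The levels of experiment 1 on either diet and of HFD in experiment 3 lay around the array medians. The HFD pool of experiment 4, at 4.53, was not far above them. On average the difference was -0.80 (SE 0.41), which is a level 1.75-fold higher on LFD, and the adjusted p in limma was 0.982 (exact permutation p = 0.114). The within-experiment differences were -0.19, -0.27, -1.92 and -0.82, so that experiment 3 alone carried more than any other. Without experiment 3 the mean difference was -0.43. In experiments 1 to 4 the macrophage marker mean differed by 1.00, -0.061, -0.43 and 0.0016, and the endothelial marker mean by -0.33, -0.83, 2.04 and -1.74. The part of these cell types in the Marco differences was not tested. With the experiment as a block the unadjusted 95% interval ran from -1.56 to -0.051 (adjusted p = 0.384 in limma).

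Cd36, the class B receptor that takes up long-chain fatty acids and oxidised LDL, had differences that varied least between experiments among the 9 genes (SD 0.17, n = 4). Its level was 11.96, 11.51, 11.28 and 11.61 on LFD and 12.12, 11.83, 11.85 and 11.86 on HFD. The HFD pools of experiments 2 to 4 lay close together, and in experiments 2 to 4 each of them was above all LFD pools, while LFD in experiment 1 was higher than these 3. The mean difference was 0.33 (SE 0.15, 1.25-fold), composed of 0.17, 0.33, 0.57 and 0.25 in experiments 1 to 4. In limma the adjusted p was 0.982 without the block and 0.284 with it (95% interval with the block, unadjusted, 0.088 to 0.57; exact permutation p over the 8 pools 0.114). Cd36 is also made by capillary endothelial cells and adipocytes. In experiments 2 and 4 the endothelial marker mean differed by -0.83 and -1.74 while Cd36 was higher on HFD, and in experiment 3, where Cd36 differed most, the endothelial mean was 2.04 higher on HFD. Its part in the Cd36 differences was not tested in any experiment.

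Scarb1 encodes SR-BI, the class B receptor for HDL and cholesteryl ester exchange, and showed no common direction. On LFD its level was 10.84, 8.82, 7.84 and 9.44, and on HFD 10.65, 8.79, 8.98 and 8.54. The groups overlapped fully. The differences were -0.20, -0.028, 1.13 and -0.90, and their mean was 0.0033 (SE 0.70, 95% interval -1.62 to 1.63; exact permutation p = 1, limma adjusted p = 0.999). The interval is wide enough to hold a large difference either way. From the highest to the lowest pool, Scarb1 began with LFD and HFD of experiment 1 and LFD of experiment 4 and ended with HFD of experiments 2 and 4 and LFD of experiment 3. The mean of the endothelial markers had the same 3 pools at the top and the same 3 at the bottom in the same order, and differed by -0.33, -0.83, 2.04 and -1.74 within the experiments. Mural cell markers differed by -0.022, -0.13, 1.82 and -1.12. The part of these cells in the Scarb1 values was not tested.

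**Figure D2:**
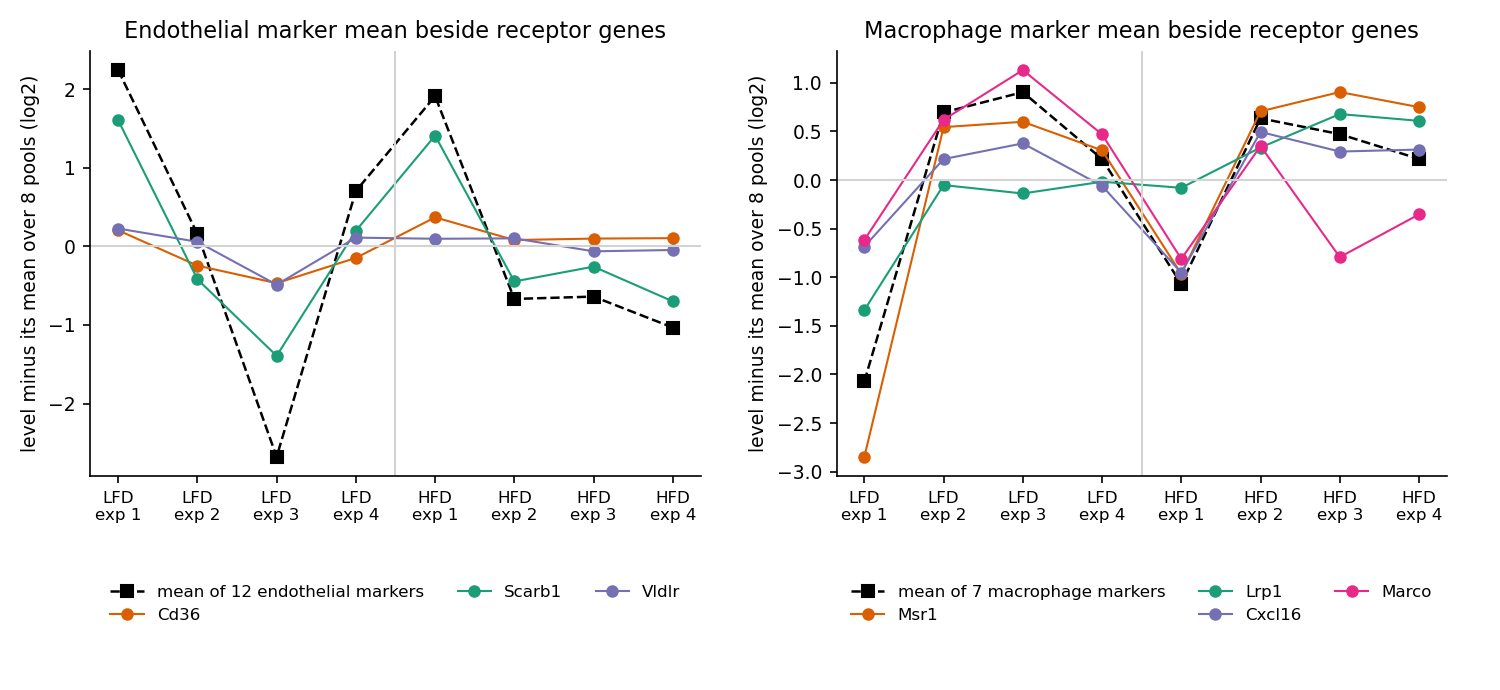
Levels in each of the 8 pools, each line centred on its own mean over the pools (y axis, log2), with endothelial markers (dashed, mean of 12) beside Cd36, Scarb1 and Vldlr on the left and macrophage markers (dashed, mean of 7) beside Msr1, Lrp1, Cxcl16 and Marco on the right. Scarb1 is high in experiment 1 and lowest in the LFD pool of experiment 3 like the endothelial mean, and Msr1 is lowest in the LFD pool of experiment 1 like the macrophage mean.

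Olr1 encodes LOX-1, the lectin-like receptor for oxidised LDL of class E, which endothelial cells and activated macrophages carry. LFD pools were at 7.03, 5.95, 6.99 and 6.59, and HFD pools at 7.15, 6.62, 7.20 and 7.35. HFD was higher in each experiment, but the groups overlapped, since experiment 2 was low on both diets. The mean of the differences was 0.44 (SE 0.27, 1.36-fold) with a limma adjusted p of 0.988, and 0.313 with the experiment as a block (95% interval with the block, unadjusted, 0.094 to 0.79). The exact permutation p was 0.171. The differences fell into a smaller pair, 0.12 and 0.20 in the experiments with 45% fat, and a larger pair, 0.67 and 0.77 in those with 60% fat.

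Cxcl16 encodes a chemokine that is held in the membrane, where it binds phosphatidylserine and oxidised lipoproteins, and that is shed by the proteases ADAM10 and ADAM17 to attract cells carrying CXCR6. Levels on LFD were 8.73, 9.63, 9.80 and 9.36, and on HFD 8.47, 9.91, 9.71 and 9.73. Both pools of experiment 1 were low, and 92.6% of the variance lay between experiments against 0.566% between diets. Its mean difference was 0.075 (SE 0.36), with a 95% interval from -0.77 to 0.92 and an exact permutation p of 0.771. Within experiments it was -0.27, 0.28, -0.084 and 0.37, hence lower at 45% fat and higher at 60%.

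Stab2 encodes stabilin-2, the class H receptor for hyaluronan of sinusoidal endothelium in liver and lymphoid organs. All 8 levels were near the array medians, at 4.07, 4.03, 4.49 and 4.45 on LFD and 4.09, 4.58, 4.87 and 4.49 on HFD, where signals are dim. A mean difference of 0.25 was found (SE 0.19; limma adjusted p = 0.990; exact permutation p = 0.143). Differences in experiments 1 and 4 were 0.023 and 0.048, and those in experiments 2 and 3 were 0.55 and 0.39. In experiments 2 to 4 the groups did not overlap, though the highest LFD and the lowest HFD pool both read 4.49.

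Lrp1, the large endocytic receptor for apolipoprotein E, lipoprotein lipase and protease complexes, had the largest mean difference among the genes that were higher on HFD. Its level was 8.57, 9.86, 9.77 and 9.89 on LFD and 9.83, 10.25, 10.59 and 10.52 on HFD. HFD pools of experiments 2 to 4 were above all LFD pools, and only the HFD pool of experiment 1 fell among them. The mean difference was 0.77 (SE 0.32, 1.71-fold), with 1.26, 0.39, 0.82 and 0.63 in experiments 1 to 4. The unadjusted p in limma was 0.0459 and the adjusted p 0.982, and an exact permutation gave 0.0857, where 4 against 4 pools allow 0.0286 at best. With the experiment as a block the standard error was 0.15, the 95% interval 0.39 to 1.15, the unadjusted p 0.00294 and the adjusted p in limma 0.163. Diet accounted for 43.2% of the variance of Lrp1 and experiment for 49.4%, and this share of diet was the highest of the 9 genes, just ahead of Cd36 at 42.3%. In experiments 2 to 4 alone the mean difference was 0.61 ± 0.22 (SD, n = 3; exact permutation p = 0.1). In experiments 1 to 4 the macrophage marker mean differed by 1.00, -0.061, -0.43 and 0.0016, and Adgre1 alone by 2.04, 0.43, -0.28 and 0.24. The fibroblast marker mean differed by 0.12, 0.91, 1.48 and -0.39. The part of these cell types in the Lrp1 differences was not tested.

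Vldlr, the receptor for triglyceride-rich lipoproteins in muscle, fat and endothelium, was not far above the array medians throughout. LFD pools read 5.03, 4.86, 4.31 and 4.91 and HFD pools 4.90, 4.90, 4.74 and 4.76. Apart from the low LFD pool of experiment 3, the values of both diets were mixed. Its mean difference was 0.045 (SE 0.16, 95% interval -0.32 to 0.41; exact permutation p = 0.914).

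**Figure D3:**
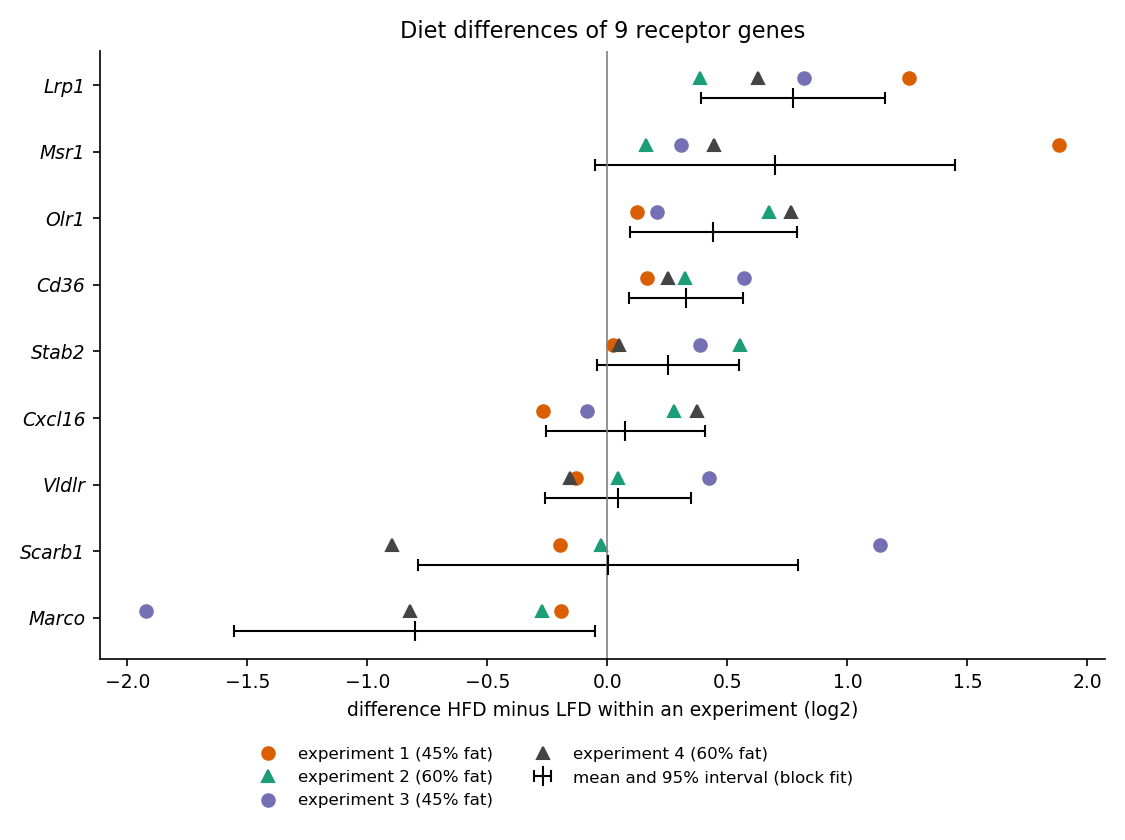
Difference HFD minus LFD (x axis, log2) of each receptor gene in experiments 1 and 3 (circles, 45% fat) and 2 and 4 (triangles, 60% fat), with the mean and its unadjusted 95% interval from the fit with the experiment as a block in black. The intervals of Lrp1, Olr1 and Cd36 lie right of 0 and that of Marco lies left of it, while for Olr1 and Cxcl16 both triangles lie right of both circles.

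Whether the diet difference varied with the fat content was tested as the difference at 60% minus that at 45%. In limma no gene passed the adjusted threshold, with a smallest adjusted p of 0.951 over all genes, and at an unadjusted p under 0.05 the difference was larger at 60% for 459 genes and smaller for 284. Olr1 and Cxcl16 were the 2 of the 9 receptor genes with an unadjusted p under 0.05 and a larger difference at 60%, against 2.44% of all genes. For Olr1 the 60% difference exceeded the 45% difference by 0.56 (SE 0.16, unadjusted p = 0.0225 and adjusted p = 0.951 in limma). For Cxcl16 it did so by 0.50 (SE 0.17, unadjusted p = 0.0374 and adjusted p = 0.951 in limma). In limma without the block the unadjusted p was 0.249 for Olr1 and 0.513 for Cxcl16. Without experiment 1, which leaves a single experiment at 45%, the excess was 0.51 for Olr1 and 0.41 for Cxcl16. Scarb1, Msr1, Lrp1, Vldlr and Cd36 ran the other way, none with an unadjusted p under 0.05. Scarb1 had the largest such shift, from 0.47 at 45% to -0.46 at 60%. The mean differences of Msr1 and Lrp1 were 1.09 and 1.04 at 45% and 0.30 and 0.51 at 60%, those of Vldlr and Cd36 0.15 and 0.37 at 45% and -0.057 and 0.29 at 60%. All 45% means hold experiment 1. Without it, the 60% minus the 45% difference was -0.0026 for Msr1 and -0.31 for Lrp1, against -0.79 and -0.53 with it. For Scarb1, Vldlr and Cd36 it was -1.60, -0.48 and -0.28 without experiment 1, against -0.93, -0.20 and -0.078 with it. The weeks on diet differed along with fat content, so that fat content, duration and experiment cannot be told apart.

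Companion genes of the receptors were read from 4 lists, also chosen with earlier results of these data known, of which 43 of 50 genes were analysed. Of these 43, HFD was higher in all 4 experiments for 9 and lower for 1, against 11.0% and 7.43% of all genes, the median difference was 0.040, and none passed an adjusted p under 0.05 in limma with or without the block. With the block, 8 were higher and 1 was lower at an unadjusted p under 0.05, against 7.95% and 4.16% of all genes. Among 14 further scavenger receptors the median difference was -0.048. Cd68, the macrosialin of late endosomes, was higher in all 4 experiments, by 0.91 on average (SE 0.70), of which experiment 1 gave 2.45 and the others 0.36, 0.38 and 0.44. The soluble receptor gene Ssc5d was also higher in all 4 (0.47, SE 0.26), but by only 0.072 and 0.0079 in experiments 1 and 4. Ager, the receptor for glycation end products, was higher in 3 (0.28). Stab1, the stabilin of macrophages, differed by -0.25 and the lysosomal Scarb2 by -0.031.

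Among 10 further genes of the LDL receptor family the median difference was 0.043. Lrp12, a family member whose ligands are little known, was 5.47, 6.66, 7.79 and 7.61 on LFD and 7.25, 8.25, 8.73 and 8.74 on HFD. HFD was higher in each experiment, by 1.79, 1.60, 0.94 and 1.13, though the groups overlapped. Its mean difference of 1.36 (SE 0.57) had an adjusted p of 0.982 in limma and of 0.0731 with the block. Sorl1, a sorting receptor, was higher in all 4 experiments (0.51, SE 0.40), and Lrp4 differed by 0.26. Lrp5, a Wnt co-receptor named here after its values were seen, was the one companion gene that was lower in all 4 experiments (-0.68, SE 0.56).

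The helpers and regulators of the receptors, 9 genes, had a median difference of 0.057. Nr1h3, which encodes the oxysterol-sensing nuclear receptor LXRα, was 6.91, 5.79, 6.44 and 6.91 on LFD and 7.00, 7.04, 7.52 and 7.72 on HFD. All HFD pools were above all LFD pools, by a narrow margin in experiment 1, and the mean difference was 0.81 (SE 0.29; limma adjusted p = 0.982). Pparg, a known regulator of Cd36, was higher in experiments 1 to 3 and equal in experiment 4 (0.47, SE 0.31). Adam17 was higher in all 4 experiments (0.41, SE 0.27), though by only 0.027 in experiment 3. Adam10 and the LRP1 chaperone Lrpap1 differed by 0.057 and 0.052.

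Ligands and partners of the receptors, 10 genes, had a median difference of 0.15. Lpl, the lipoprotein lipase that releases fatty acids from lipoproteins and binds LRP1, was 9.02, 9.74, 11.01 and 11.28 on LFD and 11.26, 11.82, 12.12 and 12.03 on HFD. The diets overlapped only in that the LFD pool of experiment 4 lay just over the HFD pool of experiment 1. The differences were 2.24, 2.09, 1.11 and 0.75, with a mean of 1.55 (SE 0.50; adjusted p 0.982 in limma, 0.131 with the block). Calr, calreticulin, which signals through LRP1 on dying cells, was higher in every HFD pool than in any LFD pool, by only 0.26 (SE 0.10). Fyn, a kinase downstream of CD36, differed by 0.56 (SE 0.32). Fabp5, a fatty acid carrier named after its values were seen, had a mean difference of 0.69 (SE 0.51). It was higher in all 4 experiments, by 0.021, 0.71, 1.93 and 0.10, so that experiment 3 carried most of the mean. The receptor of CXCL16, Cxcr6, was under the limit for dim probe sets, a log2 of 3.65, on all 8 arrays and differed by -0.0089.

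**Figure D4:**
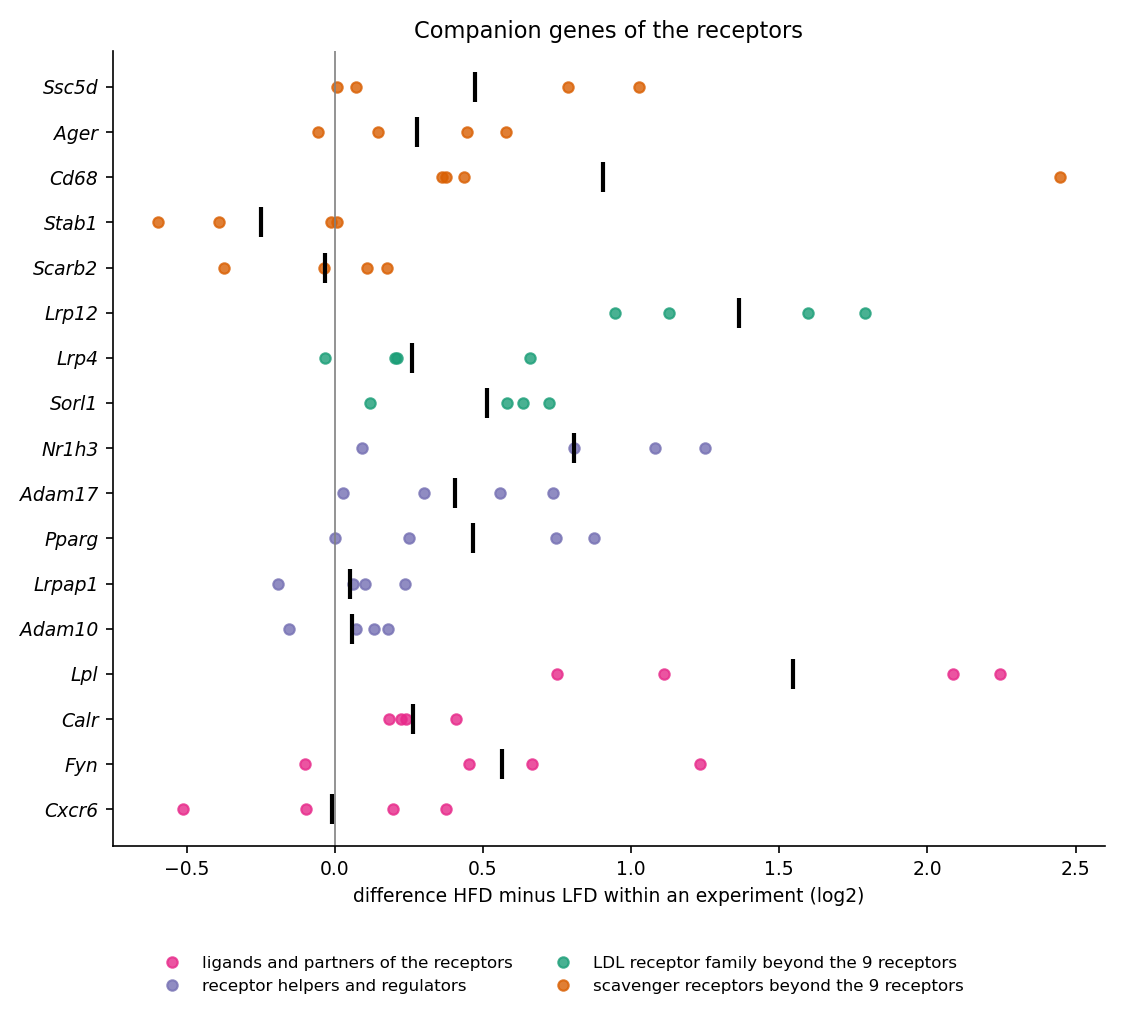
Difference HFD minus LFD (x axis, log2) of the named companion genes in each of the 4 experiments (points, coloured by list), with the mean of the 4 as a black bar. All 4 points lie right of 0 for Lpl, Lrp12, Sorl1, Nr1h3, Calr, Cd68, Ssc5d and Adam17, and Lpl and Lrp12 have the largest means, 1.55 and 1.36.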

How the data were processed

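RNA of 8 pools of ATMs was measured on Affymetrix whole-transcript arrays. The deposited table holds log2 values that the authors made with RMA (per the submitters' processing notes, without a version). The genome build is not given in the sources used here. Of 35556 probe sets, 21218 had 1 gene symbol, 1881 had several and 12457 had no annotation. Where a gene had more than 1 probe set (1386 of 18820 genes), its brightest one by mean level was kept, and each receptor gene had 1. Values were analysed as deposited, and groups came from the titles of the samples.

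HFD was compared with LFD with lmFit and eBayes of limma 3.58.1 in R 4.3.3, and p-values were adjusted by Benjamini-Hochberg over all 18820 genes and a threshold of 0.05. An alternative fit took the experiment as a block. The deviations of the 2 pools of an experiment from their diet means correlated across genes with r = 0.889, 0.357, 0.652 and 0.186 in experiments 1 to 4, so the experiment, which the labels give, pairs the pools. The fat content was tested as a product term beside the experiments. Single genes were also compared by two-sided exact permutation of the pools (Python 3.11.15, numpy 2.4.6). The permutation regroups the pools freely and leaves out their pairing by experiment. Intervals are 95% and unadjusted. The fits were tested on simulated data. Other alternatives left out each array, each experiment or dim genes (a log2 under 3.65, the 40th percentile of all values, on more than 4 arrays), or used each fat content alone, other scalings, all probe sets of a gene, another prior and the methods' t-test. The receptor genes, companion lists and marker lists were chosen with earlier results of these data known. All 9 receptors are named, and of each companion list the 3 genes with the smallest p and 2 well-known genes, where measured. Windows upstream of the start came from RefSeq (GRCm38.p6), matched by symbol. 7 companion genes are not analysed here.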

Additional observations from a re-analysis of the deposited data

Results flagged for a closer look

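In groups of 4 values, 6 of 27 tested groups held a value farther from the rest than Dixon's 95% limit allows. All 6 were values of experiment 1. Chance gives about 1 in 20 for independent groups. These groups share the same arrays, and the differences are made from the same levels, so the 6 cannot be set against that rate. The level of Msr1 in the LFD pool of experiment 1 was 5.46, with the nearest LFD pool at 8.61, and its level in the HFD pool of that experiment was 7.34, with the nearest at 9.01. The Msr1 difference of experiment 1, 1.88, stood apart from the next, 0.44. Lrp1 in the LFD pool of experiment 1 was at 8.57, with the nearest at 9.77. Cxcl16 in the HFD pool of experiment 1 was at 8.47, with the nearest at 9.71. Cd36 in the HFD pool of experiment 1 lay apart upwards, at 12.12 against 11.86. These pools also had the lowest macrophage marker means (7.66 and 8.66) and the highest endothelial marker means (10.46 and 10.13) of the 8, whose part in these values was not tested.

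The diet difference of Cxcl16 pointed one way in both experiments at 45% fat (-0.27 and -0.084) and the other way in both at 60% (0.28 and 0.37). The 60% difference exceeded the 45% difference by 0.50, with an adjusted p of 0.951 in limma.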

How the results depend on the processing

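The mean differences of Cd36, Lrp1, Marco, Olr1 and Stab2 kept their direction under 29 of 29 alternatives. Many of these could not turn them, so the count is no measure of robustness. The blocks, the dim filter, the prior, the t-test and the use of all probe sets left these means as they were. Leaving out whole experiments could not turn genes that had 1 direction in all 4. No receptor gene reached an adjusted p under 0.05 in limma under any alternative (the lowest was 0.132, for Lrp1). The experiment as a replicate block changed no call of a receptor gene. The number of genes past the adjusted threshold was 0 without the block and 0 with it, 4 with the block and dim genes left out, and 95 with the block and levels set relative to the macrophage marker mean. This last scaling was chosen after seeing the data and moved the median of all genes to -0.12. Single arrays moved some of these means, that of Lrp1 to 0.45 without the LFD pool of experiment 1, Olr1 to 0.21 without the LFD pool of experiment 2 and Stab2 to 0.13 or 0.39 without the HFD pool of experiment 3 or 1. Leaving out single arrays or experiments gave 0 genes throughout. It turned Msr1 only without the LFD pool of experiment 1 (range -0.13 to 1.14), and the ranges of the other receptors that turned were -0.47 to 0.54 for Scarb1, -0.11 to 0.13 for Vldlr and -0.14 to 0.41 for Cxcl16. Scarb1 also turned in the 60% experiments alone (-0.46), after a further quantile normalisation (-0.032), in the block fit without experiment 3 (-0.37) and relative to the macrophage markers with or without the block (-0.12). Vldlr turned in the 60% experiments alone (-0.057), in the block fit without experiment 3 (-0.082) and relative to the macrophage markers with or without the block (-0.083). Cxcl16 turned in the 45% experiments alone (-0.18), in the block fit without experiment 4 (-0.024) and relative to the macrophage markers with or without the block (-0.052). For the difference at 60% minus that at 45%, leaving out an experiment gave -0.28 to 0.12 for Cd36, -0.35 to 1.38 for Marco, -0.48 to 0.073 for Vldlr and -0.16 to 0.35 for Stab2. That of Msr1 did not turn but ran from -1.58 to -0.0026. The cause of these changes was not tested. Dim signal limits Stab2 and Vldlr, and Marco in experiment 1 and on HFD in experiments 3 and 4.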
